A study of Rattus norvegicus with 43 samples.

Results

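The proteasome genes are the genes whose symbol starts with Psma, Psmb, Psmc, Psmd, Psme or Psmf followed by a digit and that have a probe set of their own on the array. The rule took 42 of 14218 genes with a single-gene probe set, and all 42 were among the 10649 genes tested. Of these, 40 are subunits, regulators or assembly chaperones of the proteasome, and 2 (Psmc3ip and Psme3ip1) are interacting proteins that share only the letters. The 40 genes comprised 7 alpha and 6 constitutive beta subunits of the core, 6 ATPase and 11 non-ATPase subunits of the regulatory particle, 5 immunoproteasome genes (Psmb8, Psmb9, Psmb10, Psme1 and Psme2), 3 chaperones with Psmd names (Psmd5, Psmd9 and Psmd10) and 2 other regulators (Psme4 and Psmf1). Psmb6 and Psme3 lie only on probe sets that list several genes and have no value here.

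The samples came from 3 untreated Sprague Dawley rats, all male. Liver and cultured rat primary hepatocytes (RPH) were taken from every animal. The liver sample was a lobe tied off before the perfusion, the RPH 0 hour sample was the pellet of isolated cells, and the RPH 4, 24 and 48 hour samples were cells plated on collagen. Plated cells were kept in William's E medium with insulin, transferrin and dexamethasone, with serum for the first 4 hours and without serum after that. Each rat and group was hybridized on 3 technical arrays. The authors left out 1 array of the 4 hour group and 1 of the 48 hour group, so there were 43 arrays of 15 samples. The values are MAS5 signal intensities, scaled by the authors to the same mean signal on every array, and n = 3 rats in each group throughout. Markers of other liver cells were present in the pellets as well as in liver, as given further on.

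The proteasome degrades proteins that are tagged with ubiquitin. Its core is a barrel of stacked rings, in which the alpha rings gate the entrance and the beta rings hold the proteolytic sites, and the regulatory particle caps the barrel, binds ubiquitin and unfolds the substrate with a ring of ATPases. In cells exposed to interferon and in immune cells, inducible beta subunits (Psmb8, Psmb9 and Psmb10) take the place of Psmb5, Psmb6 and Psmb7 in new cores and form the immunoproteasome, while Psme1 and Psme2 build another cap that favours peptides for MHC class I.

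In liver and RPH 0 hour samples the hepatocyte transcripts were high, with Alb at mean signals of 36530 and 32310, and Alb was still at 29640 at 48 hours. Leukocyte and endothelial markers declined over the series. The signals of 19 leukocyte markers, summed, lay between 26478 and 41112 in the livers, between 15585 and 18566 in the pellets and between 2940 and 3629 at 48 hours. Those of 12 endothelial markers lay between 15282 and 18817, between 9453 and 13577 and between 698 and 1282. At 48 hours Ptprc was at a mean of 50.8 and Stab2 at 41.8, under the array medians of 85.7 to 111. Detection calls were not used, so these values cannot show whether such cells remained. At 48 hours against liver, all 19 leukocyte, all 12 endothelial and 11 of 14 hepatocyte markers fell, beside 22.6% of all genes, with Cyp2e1 going from 35440 to 163. In a bulk sample, fewer cells of a type cannot be told apart from less RNA per cell. The beta-actin control ratio (3' over 5' probe set) is a measure of RNA or labelling quality. With technical arrays averaged, it was 3.21 to 6.96 over the livers and 1.95 to 2.46 over the 48 hour samples, so it differed between the groups compared. The liver of rat 1 held less erythroid signal (7722 summed over 4 genes) than the livers of rats 2 and 3 (56864 and 58679). Deviations of the livers of rats 1 and 2 from their group mean also followed the cells of their own rat poorly (median r of 0 and -0.06 across genes), while the liver of rat 3 had a median r of 0.2 with the cells of rat 3. The liver labelled rat 1 had a median r of 0.2 with the cells of rat 2 (0.13 to 0.23 over their 4 groups), and the liver labelled rat 2 one of 0.09 with the cells of rat 1 (0.05 to 0.1), so these livers followed the cells of the other rat more closely than their own. The group mean of the livers does not use these labels, and neither do the log2 differences with the rat as a block. The SE and adjusted p of a blocked fit that includes the livers use them in every comparison. Values against liver within a rat or without a rat use them too.

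Transcripts of most constitutive proteasome genes were higher at 48 hours of culture than in liver. The arrays measure RNA, and proteasome protein and activity were not measured. At 48 hours against liver, 26 of the 40 genes rose and 0 fell, with a median log2 difference of 0.57, beside 25.4% of all genes tested that rose, 22.6% that fell and an all-gene median of 0.04. Among the 30 core and regulatory particle genes of the constitutive proteasome, 23 rose, with a median of 0.59. By role, 6 of 7 alpha subunits, 5 of 6 constitutive beta subunits, 4 of 6 ATPases and 8 of 11 non-ATPases rose, against 1 of 5 immunoproteasome genes. With the rat as a block 30 of the 40 rose, among them 9 of 11 non-ATPases and 3 of 5 immunoproteasome genes (Psmb8, Psmb9 and Psme2), so the gap between the classes in calls was smaller in that fit. The count of 26 was 14 without rat 2 and 17 without rat 3, when each group held 2 rats, and it was 13 with the actin ratio as a covariate, an adjustment chosen after seeing the data. Since the actin ratios of the livers and the 48 hour samples did not overlap, this covariate cannot separate RNA or labelling quality from culture, here or for single genes below. With every array centred on its median instead of the scaling to a mean, the all-gene median moved to 0.43, the share of called genes that were higher went from 52.9% to 75%, and 32 of the 40 genes rose with a median of 0.97.

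**Figure D1:**
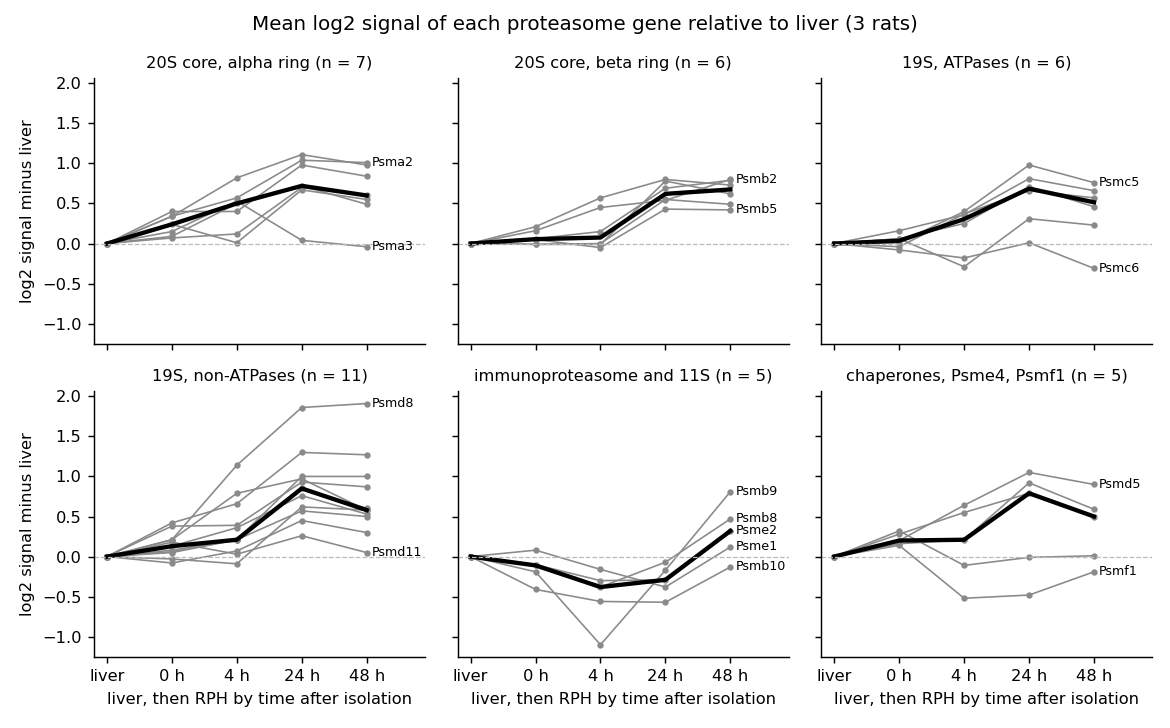
Mean log2 signal of each proteasome gene minus its mean in liver (y axis) in liver and RPH at 0, 4, 24 and 48 hours (x axis), with a grey line for each gene and a black line for the median of the class. Most core and regulatory particle genes lie above liver by 24 hours and stay there, while the 5 immunoproteasome genes lie near or below liver until 24 hours and are higher at 48 than at 24 hours.

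Between consecutive groups, most calls fell between 4 and 24 hours. Between liver and the isolated cells 0 of the 40 genes passed the test (2 had an unadjusted p under 0.05, Psmb10 and Psmd6, and limma called 61 of all genes), with 0.141% of all genes called higher and 0.432% lower. Of all genes called, 24.6% were higher, against 51.4% of the 37 called with arrays centred on their median, where 0 proteasome genes passed as well. From 0 to 4 hours 4 of the 40 rose (Psma3, Psmc4, Psmd8 and Psmd12) and 2 fell (Psmb9 and Psmf1), beside 16.3% and 22.6% of all genes. From 4 to 24 hours 18 rose and 1 (Psma3) fell, beside 26.3% and 13.5%, and the median log2 difference was 0.43 against 0.14 for all genes. From 24 to 48 hours only 2 rose (Psmb9 and Psme2) and 0 fell, beside 2.51% and 1.77% of all genes.

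At 48 against 0 hours 22 of the 40 genes rose and 0 fell, beside 26.6% and 17.5% of all genes, and the median was 0.47 against 0.12. These comparisons share samples with each other, so they are given side by side and do not count as separate evidence. With the rat as a block, 8 rose from 0 to 4 hours (Psma5, Psma6, Psmb1 and Psmc5 in addition) and 4 rose from 24 to 48 hours (Psmb8 and Psme1 in addition). The 0 to 4 hour count of 4 rises went to 1 without rat 1, to 1 without the 4 hour sample of rat 1, and to 2 if rat 2, rat 3, the 4 hour sample of rat 2 or the 0 hour sample of rat 3 was dropped. The 2 falls went to 1 if any rat or the 0 hour sample of rat 3 was dropped. From 4 to 24 hours 9, 10 and 7 genes rose without rats 1, 2 and 3, with no fall without rat 1 or rat 2. At 48 against 0 hours 4, 7 and 12 genes rose without rats 1, 2 and 3, and 14 if the 48 hour sample of rat 2 was dropped.

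The alpha subunits form the outer rings of the core. Psma2, the alpha subunit with the largest difference, had signals in rats 1, 2 and 3 of 2568, 2872 and 3950 in liver, 3148, 4084 and 4608 at 0 hours, 4772, 4777 and 4245 at 4 hours, 6644, 6202 and 6180 at 24 hours and 6326, 6453 and 5829 at 48 hours. Every cultured sample at 24 and 48 hours was above every liver and 0 hour sample, and at 48 hours against liver Psma2 rose by 1.01 on the log2 scale (SE 0.18, limma adjusted p = 0.00042). With the actin ratio as a covariate its difference was 0.62 and did not pass (adjusted p = 0.0859). Psma5 followed with 2569, 3475 and 3835 in liver, 2937, 5217 and 4570 at 0 hours, 5586, 6085 and 5581 at 4 hours, 6608, 7903 and 6625 at 24 hours and 5917, 7490 and 5940 at 48 hours. It rose by 0.98 at 48 hours against liver (SE 0.21, adjusted p = 0.00203, against 0.51 and 0.231 with the actin covariate), and its 0 hour samples were spread widely, with rat 1 lowest. Psma1 rose by 0.84, Psma7 by 0.60, Psma4 by 0.55 and Psma6 by 0.49.

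Psma3 was the alpha subunit that did not follow the others. Its signals in rats 1, 2 and 3 were 1057, 1174 and 1294 in liver, 1196, 1287 and 1415 at 0 hours, 1835, 1745 and 1501 at 4 hours, 1175, 1234 and 1189 at 24 hours and 1183, 1123 and 1104 at 48 hours. The 3 samples at 4 hours were the highest of all groups, and the 24 and 48 hour samples returned to the range of liver. Psma3 rose by 0.38 from 0 to 4 hours (SE 0.13, adjusted p = 0.034) and fell by 0.49 from 4 to 24 hours (SE 0.13, adjusted p = 0.00873), and at 48 hours its log2 difference from liver was -0.04 (adjusted p = 0.802). The rise at 4 hours did not pass with quantile normalization (adjusted p = 0.0679), with arrays centred on their median (0.0766), with no filter (0.0564), with the actin covariate (0.111) or in a fit of only the 2 groups (0.136). Nor did it pass without rat 1 (0.292), without rat 2 (0.221), or if the 0 or 4 hour sample of either was dropped (0.0734 to 0.115). The fall did not pass without rat 1 (0.106) or without rat 2 (0.0945). Another probe set for this gene also matches the related Psma3l and was left out, and whether the chosen probe set also reads transcripts of Psma3l is not known here.

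In the beta rings, Psmb2 and Psmb7 had the largest differences. Psmb2, a subunit without a proteolytic site of its own, had signals in rats 1, 2 and 3 of 4203, 5333 and 6505 in liver, 4359, 6544 and 7088 at 0 hours, 6705, 7564 and 7269 at 4 hours, 7104, 8042 and 7788 at 24 hours and 8789, 10136 and 8639 at 48 hours. All 48 hour samples were above all liver samples, and Psmb2 rose by 0.80 at 48 hours against liver (SE 0.20, adjusted p = 0.00445). With the actin covariate that value was 0.32 (adjusted p = 0.401), and without rat 2 it did not pass either (0.0815). Psmb7, which carries the trypsin-like site, had 3500, 3940 and 4877 in liver, 3804, 3692 and 5410 at 0 hours, 4433, 4209 and 4888 at 4 hours, 6251, 6243 and 7289 at 24 hours and 7392, 6758 and 6971 at 48 hours. It rose by 0.55 from 4 to 24 hours (SE 0.17, adjusted p = 0.0216) and by 0.79 at 48 hours against liver (SE 0.17, adjusted p = 0.00202). The rise against liver did not pass with the actin covariate (0.43, adjusted p = 0.217) or without rat 1 (0.0593). That from 4 to 24 hours did not pass in 7 of 21 alternatives (without rat 1 or rat 2, the 4 hour sample of either or the 24 hour sample of rat 3, with arrays centred on their median and with the actin covariate, adjusted p = 0.0538 to 0.133). Psmb1, Psmb3 and Psmb4 rose by 0.74, 0.62 and 0.50 at 48 hours against liver.

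Psmb5, which carries the chymotrypsin-like site, was the constitutive beta subunit with the smallest difference. Its signals were 6236, 5558 and 5444 in liver, 5228, 6192 and 6533 at 0 hours, 4972, 5524 and 6257 at 4 hours, 6482, 9839 and 7344 at 24 hours and 6793, 9989 and 6710 at 48 hours. Rat 2 stood above the others at 24 and 48 hours, and all 48 hour samples were above all liver samples. The log2 difference at 48 hours against liver was 0.42 (SE 0.19, adjusted p = 0.0877), so the test did not pass. Dimmer probe sets of Psmb5, at signals under 50, had log2 differences of -0.61 and -0.62 in that comparison.

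The ATPases of the regulatory particle (Psmc1 to Psmc6) form the ring that unfolds substrates. Psmc5 had signals in rats 1, 2 and 3 of 2600, 1826 and 2090 in liver, 2581, 1953 and 2024 at 0 hours, 3150, 2636 and 2725 at 4 hours, 4573, 4294 and 3862 at 24 hours and 3712, 3703 and 3519 at 48 hours. It rose by 0.58 from 4 to 24 hours (SE 0.16, adjusted p = 0.011) and by 0.76 at 48 hours against liver (SE 0.16, adjusted p = 0.00166), the former not without rat 2 (0.0976) or rat 3 (0.0889). Psmc1 had 2389, 1743 and 2314 in liver, 2464, 2208 and 2497 at 0 hours, 2892, 2577 and 2764 at 4 hours, 3623, 4172 and 3466 at 24 hours and 3181, 3883 and 3119 at 48 hours. It rose by 0.67 at 48 hours against liver (SE 0.15, adjusted p = 0.0031), with every culture sample from 4 hours on above every liver sample. Without rat 2 its difference was 0.42 and did not pass (adjusted p = 0.0692). Psmc4 rose by 0.57 and Psmc2 by 0.47 in the same comparison.

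Psmc3 and Psmc6 were the ATPases that did not pass the test against liver. Psmc3 had 3509, 2755 and 3432 in liver, 3311, 3185 and 3573 at 0 hours, 2552, 2540 and 2825 at 4 hours, 3660, 4314 and 4041 at 24 hours and 3434, 4274 and 3620 at 48 hours. All 4 hour samples were below all 0 hour samples (log2 difference -0.35, adjusted p = 0.0687), and Psmc3 then rose by 0.60 from 4 to 24 hours (SE 0.14, adjusted p = 0.0044), which placed it at 0.23 above liver at 48 hours (adjusted p = 0.202). The rise did not pass without rat 3 (0.0527) or with arrays centred on their median (0.0732). Psmc6 varied more between rats than the other ATPases, from 2275 to 4460 at 48 hours and from 3206 to 4393 in liver, and its log2 difference at 48 hours against liver was -0.31 (SE 0.31, adjusted p = 0.426). The other probe sets of Psmc6 differed by -0.05 and -0.08.

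The largest difference of all 40 genes was that of Psmd8, a subunit of the lid of the regulatory particle. Its signals in rats 1, 2 and 3 were 3156, 3296 and 2917 in liver, 3225, 4226 and 3475 at 0 hours, 6698, 7067 and 6941 at 4 hours, 10824, 11825 and 11330 at 24 hours and 12169, 12777 and 10318 at 48 hours. The samples of each culture time up to 24 hours lay above all samples of the time before, apart from overlap between liver and 0 hours, and the 24 and 48 hour samples overlapped. Psmd8 rose by 0.93 from 0 to 4 hours (SE 0.14, adjusted p = 0.000174), by 0.71 from 4 to 24 hours (SE 0.14, adjusted p = 0.00115) and by 1.91 at 48 hours against liver (SE 0.14, adjusted p = 2.26e-07), a mean signal of 11710 against 3119. The value at 48 hours against liver was between 1.85 and 2.3 under all alternatives and passed the test in each.

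Psmd14, the deubiquitinase of the lid that removes ubiquitin chains from substrates, was next. In rats 1, 2 and 3 it measured 1818, 2015 and 2862 in liver, 2277, 3468 and 3219 at 0 hours, 3675, 3838 and 2976 at 4 hours, 6339, 5459 and 4524 at 24 hours and 5540, 5442 and 4920 at 48 hours. All 24 and 48 hour samples were above all liver and 0 hour samples, and the difference at 48 hours against liver was 1.27 (SE 0.21, adjusted p = 0.000261). Its 2 dimmer probe sets differed by 2 and 1.43 in the same direction. Psmd13 (1.00), Psmd6 (0.86), Psmd4 (0.59, a ubiquitin receptor), Psmd2 (0.58), Psmd12 (0.58) and Psmd7 (0.53) also rose at 48 hours against liver. Psmd12 rose already from 0 to 4 hours, by 0.58 (SE 0.17, adjusted p = 0.0178), and differed by -0.39 from 24 to 48 hours without passing the test.

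Psmd11, a lid subunit, had the smallest difference of the non-ATPases. It measured 7148, 4568 and 5018 in liver, 7190, 6773 and 4892 at 0 hours, 5944, 5759 and 5101 at 4 hours, 6770, 7298 and 5682 at 24 hours and 5610, 5890 and 5505 at 48 hours. The groups overlapped, with rat 1 highest in liver and at 0 hours, and the log2 difference at 48 hours against liver was 0.05 (SE 0.19, adjusted p = 0.846). Psmd1 and Psmd3 differed by 0.50 and 0.30 and did not pass the test, and with the rat as a block Psmd1 did (adjusted p = 0.013).

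**Figure D2:**
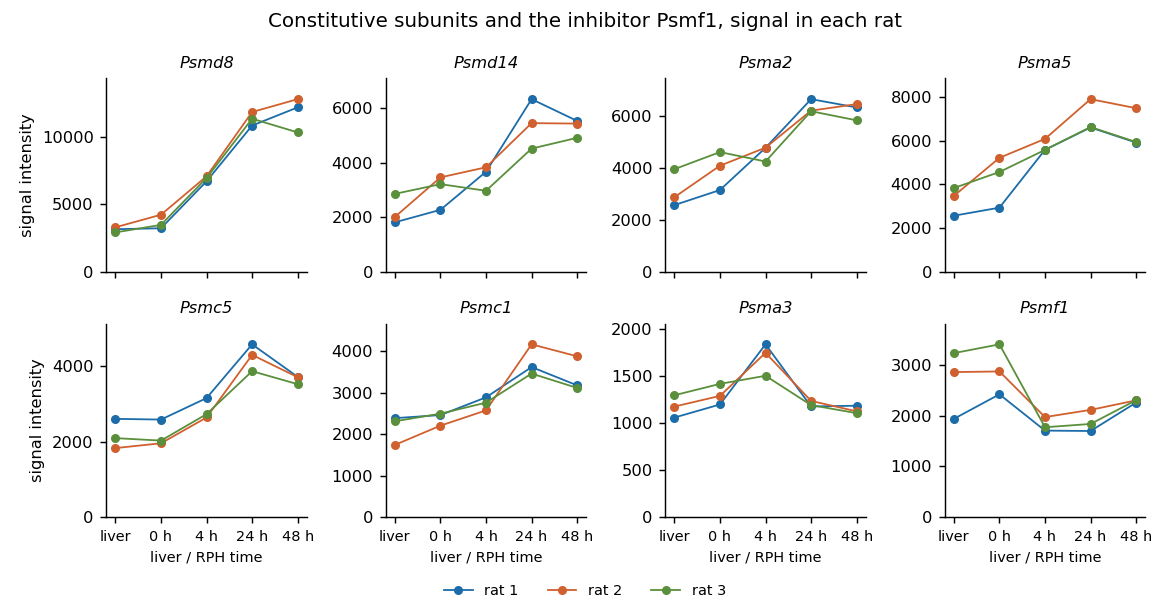
Signal intensity (y axis, linear, from 0) of 8 genes in each of the 3 rats (points joined by lines) in liver and RPH at 0, 4, 24 and 48 hours (x axis). Psmd8 lies between 2917 and 3296 in the livers and between 10318 and 12777 at 48 hours, whereas Psma3 peaks at 4 hours and Psmf1 is lower at 4 hours than at 0 hours.

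The genes around the core and cap also differed in direction. Psmd5, a chaperone for assembly of the ATPase ring, rose by 0.90 at 48 hours against liver (SE 0.18, adjusted p = 0.00104), while the other chaperones of this step, Psmd10 and Psmd9, differed by 0.50 and 0.01 and did not pass the test (0.0191 for Psmd10 with the rat as a block). Psmf1, which encodes the proteasome inhibitor PI31, measured 1939, 2862 and 3237 in liver, 2423, 2875 and 3410 at 0 hours, 1707, 1974 and 1773 at 4 hours, 1699, 2116 and 1838 at 24 hours and 2260, 2304 and 2307 at 48 hours. All 4 hour samples were below all 0 hour samples, and Psmf1 fell by 0.66 from 0 to 4 hours (SE 0.19, adjusted p = 0.0136). That fall did not pass without rat 3 (adjusted p = 0.142), without rat 2 (0.0846), without the 0 hour sample of rat 3 (0.0595), with arrays centred on their median (0.0851) or on the first technical array alone (0.0549). The log2 difference of Psmf1 at 48 hours against liver was -0.19 (adjusted p = 0.415).

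Psme4, the activator known as PA200, measured 2526, 1956 and 1976 in liver, 2554, 2515 and 2104 at 0 hours, 2443, 2451 and 2504 at 4 hours, 4220, 3569 and 4349 at 24 hours and 2862, 2987 and 3909 at 48 hours. The 24 hour samples were the highest in each rat, and Psme4 rose by 0.71 from 4 to 24 hours (SE 0.16, adjusted p = 0.00345) and by 0.59 at 48 hours against liver (SE 0.16, adjusted p = 0.00856). Its probe sets did not move together, since another differed by 1.1 from liver on the log2 scale at 48 hours and the dimmest of the 3 by -0.34. The rise against liver did not pass without rat 2 (adjusted p = 0.0772), without rat 3 (0.133) or on the first technical array alone (0.051), and the rise from 4 to 24 hours did not with the mean of all probe sets (0.0594).

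The immunoproteasome genes fall into the inducible beta subunits and the subunits of the inducible cap. From 0 to 4 hours all 5 had negative log2 differences (-0.91 to -0.15), of which that of Psmb9 passed the test. From 24 to 48 hours all 5 had positive log2 differences (0.44 to 0.98, median 0.54), of which 2 passed the test, while the median of the 30 constitutive genes was -0.09, with 0 calls. The medians from 24 to 48 hours were 0.63 and -0.07 with quantile normalization and 0.51 and -0.12 with arrays centred on their median, where no call was left. The count of 2 rises also went to 0 if any rat, the 24 hour sample of rat 1 or rat 3, or the 48 hour sample of rat 1 or rat 2 was dropped, and if only the 24 and 48 hour samples were fitted.

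Psmb9, the inducible subunit that replaces Psmb6, had the largest differences. In rats 1, 2 and 3 it measured 891, 943 and 789 in liver, 704, 873 and 722 at 0 hours, 412, 481 and 340 at 4 hours, 676, 947 and 735 at 24 hours and 1642, 1978 and 1111 at 48 hours. All 4 hour samples were below every other sample, and all 48 hour samples were above every other sample. Psmb9 fell by 0.91 from 0 to 4 hours (SE 0.21, adjusted p = 0.00487), rose by 0.93 from 4 to 24 hours (SE 0.21, adjusted p = 0.00377) and rose by 0.98 from 24 to 48 hours (SE 0.21, adjusted p = 0.0203). At 48 hours it was 0.82 above liver (SE 0.21, adjusted p = 0.00711). That rise against liver did not pass with the actin ratio as a covariate (adjusted p = 0.145) or without rat 1 (0.0822), and the fall at 4 hours did not without rat 1 (0.0554). The rise of Psmb9 from 24 to 48 hours did not pass in 9 of 21 alternatives (limma adjusted p up to 0.397, without rat 1).

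Psme2, which with Psme1 forms the interferon-inducible cap, measured 3657, 3137 and 3236 in liver, 3202, 3207 and 2939 at 0 hours, 2963, 2482 and 2701 at 4 hours, 2748, 2828 and 2615 at 24 hours and 4514, 4316 and 3708 at 48 hours. Every 48 hour sample was above every other sample of the series, and Psme2 rose by 0.61 from 24 to 48 hours (SE 0.13, adjusted p = 0.0174) and by 0.42 at 48 against 0 hours (SE 0.13, adjusted p = 0.0181). The rise from 24 to 48 hours did not pass in 10 of 21 alternatives (limma adjusted p up to 0.27, without rat 1). The rise against 0 hours did not pass without rat 1, 2 or 3 (adjusted p = 0.127, 0.118 and 0.076), if the 0 hour sample of rat 3 (0.0585) or the 48 hour sample of rat 1 (0.0701) or rat 2 (0.0579) was dropped, with arrays centred on their median (0.0771) or in a fit of only the 2 groups (0.0788). Against liver the difference of 0.32 did not pass the test (adjusted p = 0.0567, and 0.0309 with the rat as a block). Psme1 measured 7151, 7874 and 7668 in liver, 6858, 9113 and 8060 at 0 hours, 5964, 7460 and 6959 at 4 hours, 5254, 6704 and 5537 at 24 hours and 8645, 8842 and 7145 at 48 hours. All 48 hour samples of Psme1 were above all 24 hour samples (log2 difference 0.50, adjusted p = 0.108, and 0.0348 with the rat as a block), and at 48 hours its mean was 0.11 above liver on the log2 scale. A dim second probe set of Psme1 had a log2 difference of -1.99 at 48 hours against liver, with means of 32.4 and 129.

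Psmb8, the inducible subunit that replaces Psmb5, differed most between rats of all 40 genes (SD over rats of 0.587 on the log2 scale, against a median of 0.193). It measured 846, 1244 and 606 in liver, 749, 1234 and 550 at 0 hours, 720, 968 and 411 at 4 hours, 790, 1225 and 575 at 24 hours and 1451, 1638 and 718 at 48 hours. In all 5 groups rat 2 was highest and rat 3 lowest, the liver included. The log2 difference from 24 to 48 hours was 0.54 (SE 0.43, adjusted p = 0.632), and within rats each of the 3 went up, which gave an SE of 0.14 and an adjusted p of 0.0348 with the rat as a block. With the block Psmb8 also rose by 0.58 at 48 against 0 hours (adjusted p = 0.00401) and by 0.47 against liver (adjusted p = 0.0119). These log2 differences do not use the rat labels. The SE and adjusted p of the blocked comparisons, that from 24 to 48 hours included, rest also on the liver labels of rats 1 and 2.

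Psmb10, the inducible subunit that replaces Psmb7, measured 950, 928 and 859 in liver, 743, 649 and 662 at 0 hours, 688, 536 and 637 at 4 hours, 627, 604 and 609 at 24 hours and 968, 830 and 720 at 48 hours. All 0 hour samples were below all liver samples (log2 difference -0.42, adjusted p = 0.243), and all 48 hour samples were above all 24 hour samples (0.44, adjusted p = 0.117, and 0.0503 with the rat as a block). At 48 hours the log2 difference of Psmb10 from liver was -0.13 (SE 0.14, adjusted p = 0.475).

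**Figure D3:**
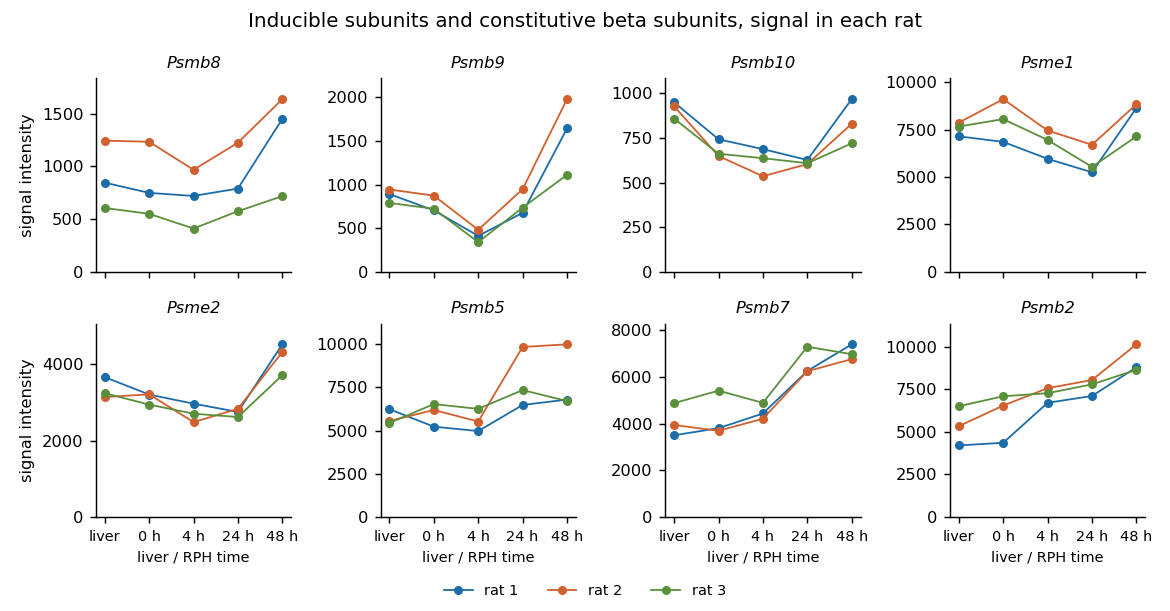
Signal intensity (y axis, linear, from 0) of the 5 immunoproteasome genes and 3 constitutive beta subunits in each rat (points joined by lines) in liver and RPH at 0, 4, 24 and 48 hours (x axis). Psmb9 dips to 340 to 481 at 4 hours and reaches 1111 to 1978 at 48 hours, and Psmb8 keeps the same order of rats in every group.

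The inducible and constitutive subunits of a site were compared through the difference of their log2 changes, which leaves out the unknown difference in brightness between probe sets. Of the 3 such pairs only 2 could be compared, because Psmb6 has no value. The change of Psmb10 minus that of Psmb7 was -0.92 at 48 hours against liver (SD 0.14 over rats, with -1.05, -0.94 and -0.77 in rats 1, 2 and 3), and 0.35 from 24 to 48 hours (SD 0.04). For Psmb8 minus Psmb5 it was 0.55 from 24 to 48 hours (SD 0.22, with 0.81, 0.40 and 0.45) and 0.05 at 48 hours against liver (SD 0.56). Over the 12 pair and comparison combinations the smallest two-sided exact permutation p was 0.1 (adjusted p = 0.4), and 0.1 is the smallest that this test of 3 against 3 samples, which does not use the pairing by rat, can give. The value for Psmb8 minus Psmb5 at 48 hours against liver changed sign with quantile normalization, to -0.29.

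**Figure D4:**
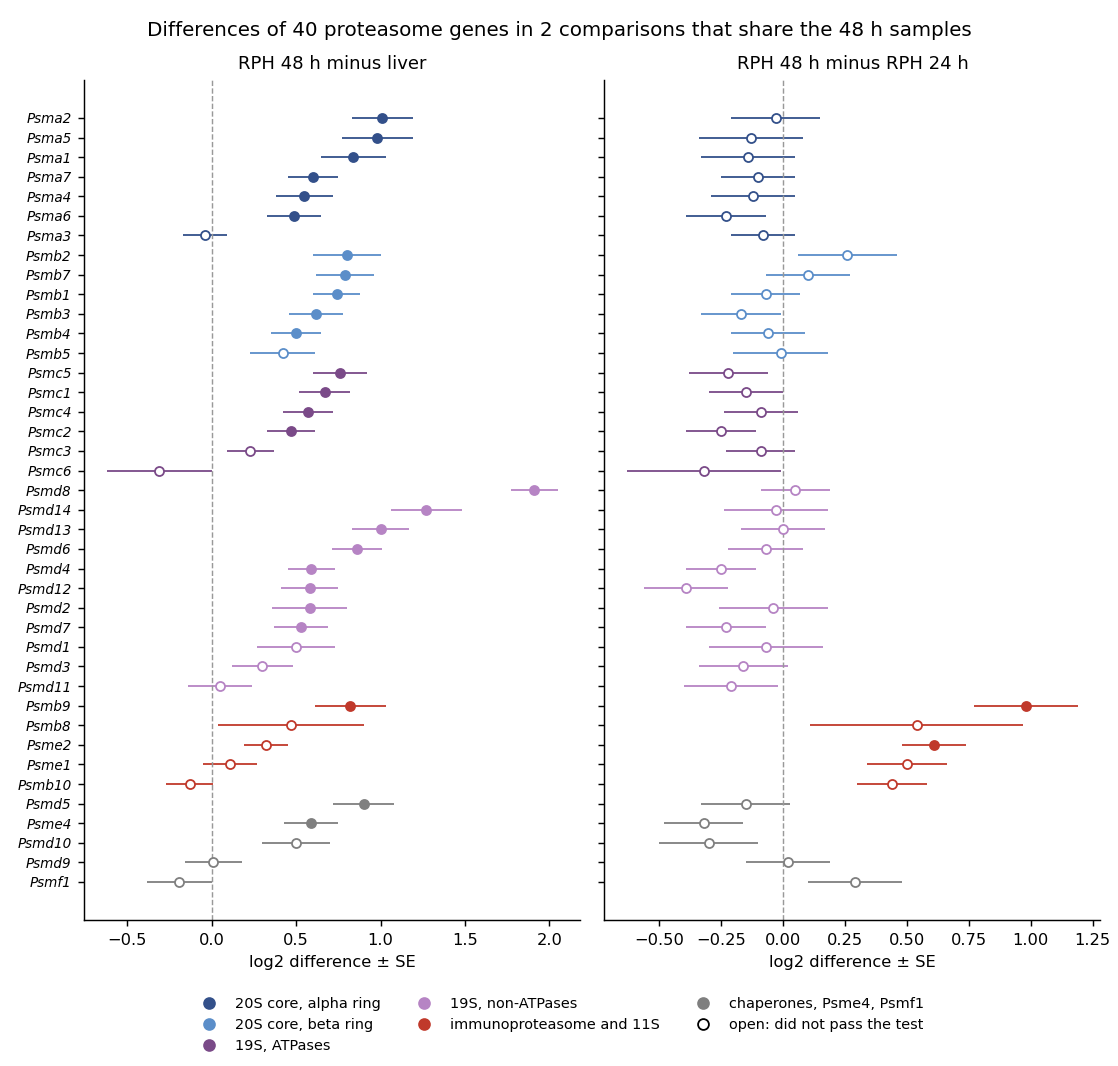
Log2 difference with its SE (x axis) for each of the 40 genes (y axis, grouped by class) at 48 hours against liver (left) and 48 against 24 hours (right), with filled points for genes that passed the test. At left 26 genes are filled and all lie to the right of 0, and at right only Psmb9 and Psme2 are filled.

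Leukocyte markers were lower at 48 than at 24 hours, and the 5 immunoproteasome genes had positive differences. From 24 to 48 hours 11 of 19 leukocyte markers fell and 0 rose, beside 1.77% and 2.51% of all genes, with a median log2 difference of -1, and their summed signal went from 6383 to 8490 down to 2940 to 3629. Clec4f, a Kupffer cell lectin, went from a mean of 998 to 168, and Ptprc, the pan-leukocyte CD45, from 91.2 to 50.8. As Psmb9 fell at 4 hours, the summed leukocyte signal went from 15585 to 18566 at 0 hours down to 9607 to 11818. By 24 hours that sum was lower again, at 6383 to 8490, while Psmb9 rose by 0.93 from 4 to 24 hours. In the livers the sum was 26478 to 41112, and Psmb9 differed by -0.19 between liver and 0 hours without passing the test. The part of those cells in the fall of Psmb9 was not tested. From 24 to 48 hours 5 of 12 endothelial markers fell and 0 rose. The summed signal of 12 stellate cell and fibroblast markers went up over the same interval, from between 3110 and 3256 to between 5697 and 7148, but only 6 of the 12 had positive differences (median log2 difference 0.17), and 1 was called, the myofibroblast gene Tagln, whose mean went from 854 to 3633 and made up most of the gain in the sum. Means at 24 and 48 hours were 71.2 and 144 for Col1a1, 132 and 450 for Col1a2 and 292 and 602 for Col3a1. Acta2 and Pdgfrb also had positive differences, and Dcn, Des, Lrat, Lum, Mgp and Reln (447 and 285) had negative ones. Summed over 3 cholangiocyte markers the signal was 1626 to 1903 at 24 hours and 2204 to 3133 at 48 hours, with 0 called, and nearly all of it came from Epcam (means 1640 and 2409), while Sctr had a negative difference of -0.73 and Krt19 was at 12.9 and 26.8. The part of leukocytes, endothelial cells, stellate cells, fibroblasts and cholangiocytes in the rises of Psmb9 and Psme2 was not tested.

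**Figure D5:**
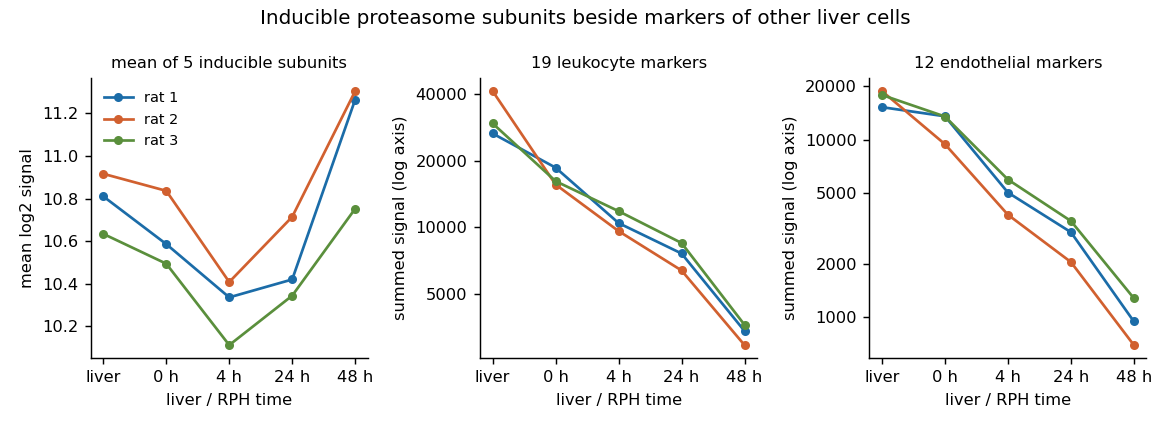
Left, mean log2 signal of the 5 immunoproteasome genes in each rat (y axis) in liver and RPH at 0, 4, 24 and 48 hours (x axis). Middle and right, summed signal (log axis) of 19 leukocyte and 12 endothelial markers in the same samples. Both sums decline throughout, and the left panel is highest at 48 hours in every rat. The part of these cells in the left panel was not tested.

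Genes of antigen presentation and interferon signalling were called in both directions. Of 8 genes of MHC class I presentation, 2 rose and 2 fell at 48 hours against liver, shares close to the 25.4% and 22.6% of all genes. Tapbp, the tapasin that bridges the peptide transporter and MHC class I, rose by 1.60 on the log2 scale (mean signals 583 and 1762, adjusted p = 0.000228), and B2m, the light chain of MHC class I, fell by 0.53 (35960 and 24910, adjusted p = 0.00842). Pdia3, of the peptide loading complex, fell by 0.53 (adjusted p = 0.032). Tap1, the transporter gene whose start lies next to that of Psmb9, had mean signals of 443, 385, 272, 421 and 527 in liver and at 0, 4, 24 and 48 hours, and none of its differences passed the test.

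Of 7 interferon regulators, 1 rose and 3 fell at 48 hours against liver, beside 25.4% and 22.6% of all genes. Irf1, a transcription factor of interferon responses, fell by 1.28 from 0 to 4 hours (mean signals 660 and 272, adjusted p = 0.00602) and rose by 0.92 from 4 to 24 hours (514 at 24 hours, adjusted p = 0.0325), and its difference from 24 to 48 hours was 0.03. Irf9 fell by 1.11 at 48 hours against liver (839 and 389, adjusted p = 0.00637), and Ifngr2, a chain of the interferon gamma receptor, rose by 1.09 (811 and 1722, adjusted p = 5.26e-05). From 24 to 48 hours 0 of the 7 passed the test.

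The promoters of the immunoproteasome genes were searched because all 5 had positive differences from 24 to 48 hours. The windows, from the RefSeq annotation of assembly GRCr8, run from 250 bases before to 50 after each start, and 36 of the 40 genes have one. The letters GAAANNGAAA, a form of the interferon-stimulated response element, or their other strand TTTCNNTTTC, were found in 3 of 5 immunoproteasome windows (60.0%), in 3 of 26 windows of constitutive genes (11.5%) and in 3.92% of all 33469 windows. Psmb10 held the letters at 2 places, and Psme2 and Psmb8 at 1 place each, that of Psmb8 running across the start. The matches that end before the start are shown with the match in capitals.
Psmb10, 73 bases before the start, chr19:50743336-50743385 (minus strand): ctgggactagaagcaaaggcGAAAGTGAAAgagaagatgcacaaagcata
Psmb10, 17 bases before the start, chr19:50743293-50743329 (minus strand): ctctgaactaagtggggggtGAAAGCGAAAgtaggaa
Psme2, 53 bases before the start, chr15:33052775-33052824 (minus strand): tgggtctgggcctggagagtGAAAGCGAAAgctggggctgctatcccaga
A match is a description of these letters and does not show that a factor binds there. Psmb9 and Psme1 held no such letters in their windows, and Psmb9 had the largest rise of the 5.

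For the constitutive genes, the CCAAT box (CCAAT, or ATTGG on the other strand) and the core of the antioxidant response element (TGACNNNGC, or GCNNNGTCA) were searched, the latter because the factor NRF1 is known to act on proteasome genes through it. CCAAT was found in 14 of 26 constitutive windows (53.8%) and in 37.5% of all windows. The antioxidant response element core was found in 5 of 26 (19.2%) and 0 of 5 immunoproteasome windows, against 12.1% of all. The examples are part of the matches in constitutive genes with per-rat values above, and in Psmb2 the 2 motifs overlap by 1 letter. Matches of Psma3, Psmc1 and Psmc3 and further CCAAT matches of Psmb2 and Psmb7 are not printed. Of these, Psma3 and Psmc3 did not pass the test at 48 hours against liver.
Psmb2, 68 bases before the start, chr5:144254970-144255018 (plus strand): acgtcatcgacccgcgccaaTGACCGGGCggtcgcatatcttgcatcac
Psmb2, 72 bases before the start, chr5:144254966-144255010 (plus strand): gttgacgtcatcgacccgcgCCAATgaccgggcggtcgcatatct
Psmb5, 60 bases before the start, chr15:32047411-32047459 (minus strand): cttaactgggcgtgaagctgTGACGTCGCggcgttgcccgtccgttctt
Psma2, 77 bases before the start, chr17:55260494-55260538 (minus strand): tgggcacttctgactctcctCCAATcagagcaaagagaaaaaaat
Psma5, 70 bases before the start, chr2:198584415-198584459 (plus strand): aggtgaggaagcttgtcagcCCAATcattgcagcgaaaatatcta
Psma5, 41 bases before the start, chr2:198584444-198584488 (plus strand): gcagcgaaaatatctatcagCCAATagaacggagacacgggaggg
Psmb7, 109 bases before the start, chr3:42827555-42827599 (minus strand): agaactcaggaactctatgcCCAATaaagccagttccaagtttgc
Psmd8, with the largest rise, had none of the 3 motifs in its window, and Psma3, with a log2 difference of -0.04 at 48 hours against liver, had both CCAAT and the antioxidant response element core.

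A list of 9 genes held the NRF1 factor (Nfe2l1), Ddi2 and Ngly1, which process it, the small MAF partners Maff, Mafg and Mafk, and the related Nfe2l2, Keap1 and Sqstm1. Of these 9, 4 rose and 3 fell at 48 hours against liver, beside 25.4% and 22.6% of all genes. Nfe2l1, which encodes NRF1, had mean signals of 345, 329, 419, 607 and 740 in liver and at 0, 4, 24 and 48 hours, and rose by 1.10 on the log2 scale at 48 hours against liver (adjusted p = 0.000135). Ddi2, the protease that releases NRF1, fell by 1.24 (1675 and 708, adjusted p = 0.00146). Maff and Mafk, small MAF partners, rose from 0 to 4 hours by 4.52 and 1.75 (adjusted p = 2.63e-06 and 1.37e-05), with Maff going from a mean of 61.8 to 1421 and back to 165 at 24 hours. Nfe2l2, which encodes the related factor NRF2, fell by 1.54 from 0 to 4 hours (4347 and 1491, adjusted p = 6.03e-05) and rose by 0.91 from 4 to 24 hours (adjusted p = 0.00258).

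Among 7 other genes of the proteasome and its bound enzymes, 2 rose and 0 fell at 48 hours against liver, close to the 25.4% of all genes that rose. Usp14, a deubiquitinase of the regulatory particle, had mean signals of 2357, 2980, 4832, 6801 and 5238 in liver and at 0, 4, 24 and 48 hours and rose by 1.15 (adjusted p = 0.000134). Ube3c, a ubiquitin ligase that binds the proteasome, rose by 0.73 (adjusted p = 0.00106), and the ubiquitin receptor gene Adrm1 differed by -0.11 (adjusted p = 0.855). Of 5 assembly factors of the core, 2 rose at 48 hours against liver (also beside 25.4%), Psmg2 by 0.59 and Psmg3 by 0.53 (adjusted p = 0.00275 and 0.0152), and Pomp was close to level at means of 9797 to 10790 over the 5 groups. Psmg1 fell by 0.60 from 0 to 4 hours (adjusted p = 0.0144). Of 9 genes of the VCP complex and ubiquitin shuttles, 4 rose and 0 fell, beside 25.4% and 22.6% of all genes, with Faf1 and Nploc4 each at 0.67. Of the 2 ubiquitin E1 genes tested, Uba1 and Uba6, 0 passed.

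The cytosolic chaperonin, another complex of many subunits that folds proteins, was taken for comparison. All 8 of its genes rose at 48 hours against liver, with a median of 0.85, and 7 of 8 rose at 48 against 0 hours, beside 25.4% and 26.6% of all genes. Cct2 rose by 1.22 and Cct5 by 1.00 at 48 hours against liver (adjusted p = 0.000278 and 0.000305).

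The 2 interacting proteins are listed for completeness. Psmc3ip rose by 0.96 at 48 hours against liver (SE 0.22, adjusted p = 0.00313) at low signals, and Psme3ip1 differed by 0.16 and did not pass. Neither enters a count above.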

How the data were processed

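The values are linear signal intensities that the authors made with the MAS5 method and deposited, each array brought to a mean of 500 after trimming. The methods name both the Command Console software and the affy package of Bioconductor. In all, the labels gave the rat, group and technical array of all 43 columns. Intensities were taken to log2 with no offset and technical arrays averaged, giving 15 samples. Of 31099 probe sets, 20832 list 1 gene and 436 several. Those above the array median (57 control probe sets left out) in at least 5 of 43 arrays (10%) were kept, 19013 in all and 14565 with 1 gene, and the brightest stood for its gene. The 10649 genes were tested with limma 3.58.1 (R 4.3.3, 1 fit over 15 samples, 6 comparisons, no rat term, Benjamini-Hochberg within a comparison, threshold 0.05), a test first run on simulated data. The number of arrays limits the precision, and detection calls were not used.

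Samples are paired, since every rat is in every group. Deviations from group means had a median r of 0.34 for the same rat (30 pairs) and -0.18 for different rats (60 pairs), so the rat was also entered as a block. Genes were given in each rat by a rule: the inducible genes and their partners, Psme4 and Psmf1, and in each class of the core and regulatory particle the 2 largest rises and the smallest change against liver. From 14 other lists up to 4 genes with the largest change at 48 against 0 hours could be named, and others named beside a result (among them B2m, Nfe2l2, Pomp, Ptprc and Uba6) were chosen after their values were seen. Members and lists were chosen with earlier results of these data known. Alternatives covered normalization, offset, filter, probe set choice, technical arrays, prior variance, block, groups in the fit, an actin covariate and each sample and rat left out.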

Additional observations from a re-analysis of the deposited data

How the results depend on the processing

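No called value of a gene given in each rat reversed under any alternative. With the rat as a block (the pairing by rat) all 36 such values passed, as did 8 rises from 0 to 4 hours and 4 from 24 to 48 hours, and no call was lost. Of the 36, 14 did not pass with the actin covariate and 13 with arrays centred on their median. In a fit of only the 2 groups 9 did not pass, and on the first technical array alone 7. No filter lost 3, the mean of all probe sets 2 and quantile normalization 1. With 1 sample or rat left out, 237 values passed and 87 did not. Blocked counts elsewhere were 21 rises and 1 fall from 4 to 24 hours, 27 rises at 48 against 0 hours and 30 against liver. The block without the livers, added after seeing the data, gave 8 rises and 4 falls from 0 to 4 hours and 4 rises from 24 to 48 hours. Arrays centred on their median gave 2 rises and 1 fall from 0 to 4 hours, 9 rises from 4 to 24, 0 from 24 to 48 and 11 at 48 against 0 hours. No filter gave 2 rises from 0 to 4 hours. A fit of only the 2 groups gave 2 rises from 0 to 4 hours, 0 from 24 to 48 and 12 at 48 against 0 hours. The first technical array alone gave 1 fall from 0 to 4 hours and 1 rise from 24 to 48 hours. The actin covariate, added after seeing the data, gave 11 rises and 1 fall at 48 against 0 hours and 13 rises and 1 fall against liver. The mean of all probe sets gave 1 fall in each of these comparisons. The cause of these shifts was not tested.

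With 1 sample or rat left out, rises ranged from 1 to 4 (0 to 4 hours), 7 to 16 (4 to 24 hours, with 10 without rat 2), 0 to 2 (24 to 48 hours), 4 to 20 (48 against 0 hours) and 14 to 27 (48 hours against liver, with 17 without rat 3), and were 0 to 0 for 0 hours against liver. Falls ranged from 1 to 2 (0 to 4 hours) and 0 to 1 (4 to 24 hours) and were 0 elsewhere. With quantile normalization the change of Psmb8 minus that of Psmb5 turned to -0.23 at 48 against 0 hours (from 0.21) and to -0.29 against liver (from 0.05), neither of which can pass the exact permutation test, whose smallest p is 0.1. Genes at low signal, such as Psmc3ip, rest on values near the array median.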
